A study of Mus musculus with 7 samples.

Results

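Rab GTPases are small membrane-bound switches that give each organelle of the secretory, endosomal and autophagic routes its identity. In the GTP-bound state a Rab recruits effectors such as tethers, motors and lipid kinases to a vesicle, and exchange factors and GTPase-activating proteins turn it on and off. In dendritic cells and macrophages, Rabs route phagosomes and endosomes towards lysosomes, recycling and antigen loading, and Rab33b is known to bind Atg16l1, the autophagy protein altered in this study. The Rab genes described here are those whose annotated symbol is Rab, a number and at most 1 letter, each read from the probe set with the highest mean over the 7 arrays among probe sets naming that gene alone. They were 50 of the 12393 genes on the array with such a probe set. Taken literally, the prefix of Rab and a digit also covers 6 genes that encode no Rab GTPase (Rab5if, Rab26os, Rab3il1, Rab3ip, Rab3gap2 and Rab11fip5), so that 56 genes carry it.

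The arrays came from cells positive for CD11c, a surface integrin of dendritic cells and of some macrophages, which were enriched with magnetic beads from mouse spleen. There were 3 arrays from Atg16l1 hypomorphic mice, which carry an allele of reduced Atg16l1 function, and 4 from wild-type (WT) mice, all C57BL/6J. Every spleen was taken on day 7 after an allogeneic hematopoietic stem cell transplant, so the WT mice share the transplant. The age is 9 weeks in the sample protocol and 8 weeks in the design text, and 100 ng of total RNA was labelled per sample. The sources used here do not give whether the named genotype is that of the donor or of the recipient. The labels do not say that the arrays are separate animals, so that every p-value measures only the spread between these arrays, which may be technical.

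Atg16l1 itself was read first, as a check of the labels. Its log2 values were 6.86, 6.76 and 6.94 in hypomorph cells, against 7.42, 7.33, 7.26 and 7.20 in WT cells, and the groups did not overlap. The difference was -0.45 on the log2 scale (95% interval -0.63 to -0.26), with an exact two-sided permutation p of 0.0286, the smallest that the 35 splits of the arrays can give, and a limma adjusted p of 0.462. Over all 22625 probe sets no difference passed the adjusted p threshold of 0.05 (0.0% called), and 1739 (7.69%) had an unadjusted limma p under 0.05. Array medians lay between 5.46 and 5.53, and each array correlated with the remaining ones at a mean r of 0.990 to 0.993. The labelled cell type was checked on 12 of 14 dendritic cell markers: Itgax, which encodes CD11c, averaged 8.29 ± 0.268 in hypomorph cells and 8.24 ± 0.170 in WT cells (log2, SD, n = 3 and 4). Mean levels of the 12 ran from 3.11 (Cd209a) to 11.06 (Cd74). Zbtb46, Ccr7 and Xcr1 also lay under 5.51, the median of all probe set means. Of the 12, 8 had a positive and 4 a negative difference, from -0.33 (Zbtb46) to 0.33 (Irf4). The groups did not overlap for Irf4 (exact permutation p = 0.0286; adjusted p = 0.644, limma). Red pulp macrophage markers were also on the arrays: Vcam1 averaged 13.09 ± 0.0931 in hypomorph cells and 12.85 ± 0.174 in WT cells. Neutrophil markers were too, with S100a8 at 13.64 ± 0.229 in hypomorph cells and 13.81 ± 0.0460 in WT cells. So were cytotoxic lymphocyte and erythroid markers: Gzma averaged 12.73 in hypomorph and 12.80 in WT cells, and Car2 11.19 and 11.85. These were brighter than Itgax, so the check does not show how pure the cells were. The lowest mean of any probe set was 2.03, so absence would not show as a value of 0. Low values such as the 3.11 of Cd209a in both groups are not read as detection. In such bulk RNA, fewer cells of a type and less RNA per cell cannot be told apart.

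None of the 50 Rab genes passed the adjusted threshold between hypomorph and WT cells; their adjusted p-values ran from 0.644 to 0.996 (limma, Benjamini-Hochberg over all probe sets). At an unadjusted limma p under 0.05 stood Rab5c, with higher values in hypomorph cells, and Rab27b, with lower ones. That is 2 of 50 (4.0%), beside 7.69% of all probe sets (4.35% with higher and 3.34% with lower values in hypomorph cells) and 7.17% of all genes read from 1 probe set each. The hypomorph and WT arrays did not overlap for 3 of 50 Rab genes (6.0%), Rab5c, Rab10 and Rab27b, beside 5.57% of all probe sets (3.07% higher and 2.5% lower in hypomorph cells) and 5.15% of genes. Both shares were near those of the array as a whole.

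The differences were small. They ran from -0.38 (Rab4a) to 0.47 (Rab20) on the log2 scale, 34 of 50 were smaller than 0.1 in size and 6 were larger than 0.2. For 39 of the 50 genes the 95% interval lay inside ±0.5, a 1.41-fold difference either way, and for 11 it reached further. The difference was positive for 33 genes and negative for 17 (66.0% positive), with a median of 0.04, beside 50.6% positive and a median of 0.00 over all probe sets. Spread within groups was like that of the array: the median within-group SD was 0.123 for the Rab genes (0.0298 to 0.437) and 0.135 for all probe sets. For 16 genes the mean lay under 5.51, the median of all probe set means, and for Rab27b, Rab3c and Rab6b it lay under the lower quartile of 3.34.

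**Figure D1:**
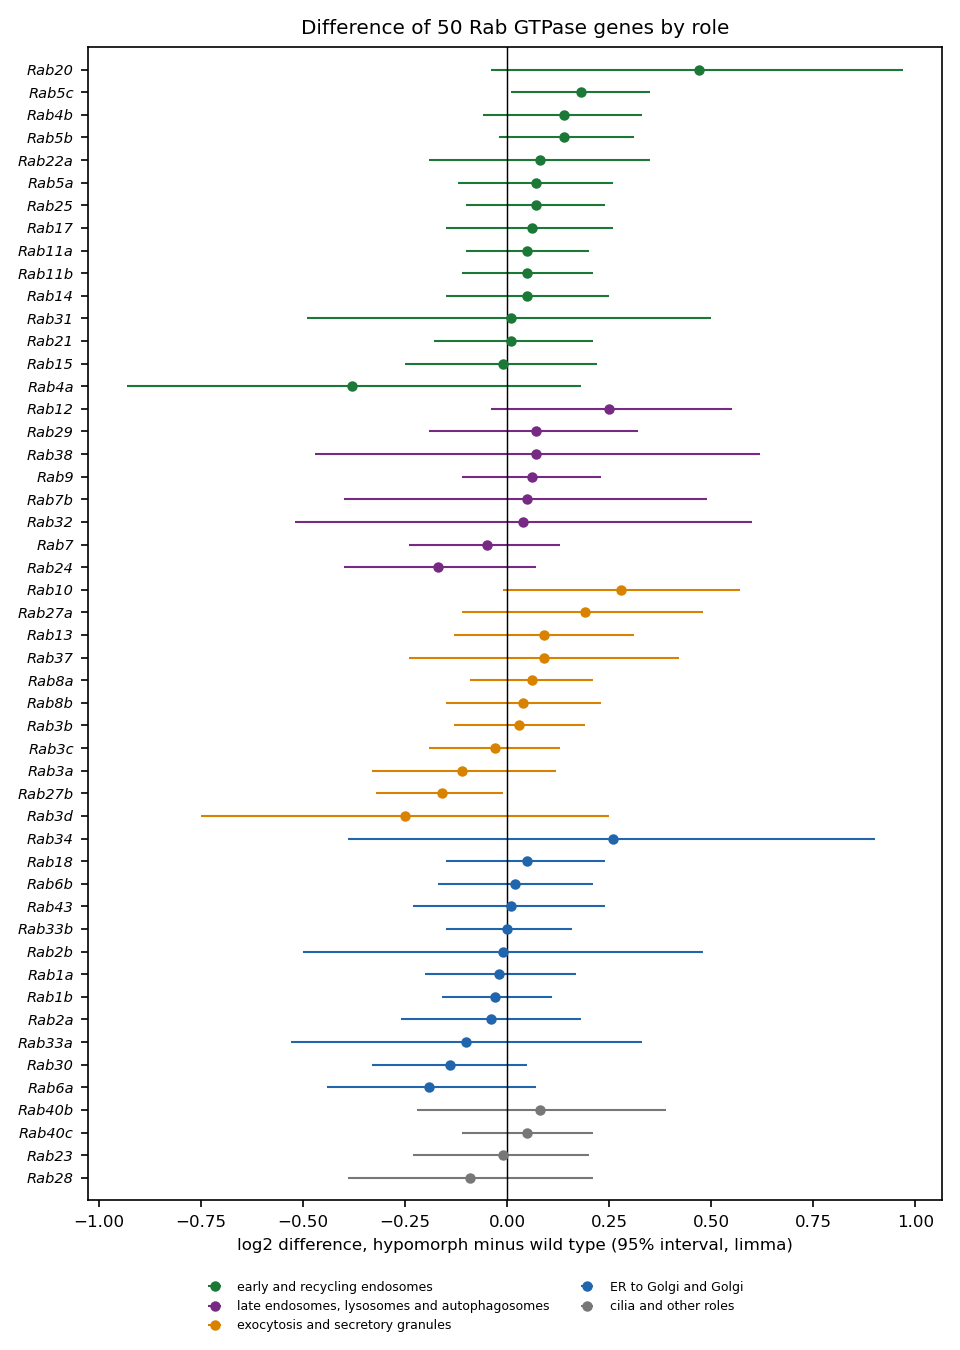
Difference between hypomorph and WT cells (log2, x axis) for each of the 50 Rab genes, grouped by role, with the 95% limma interval as a bar. The intervals of Rab5c (0.01 to 0.35) and Rab27b (-0.32 to -0.01) exclude 0; the largest difference is that of Rab20, at 0.47.

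The arrays did not share the extremes evenly. WT replicate 1 held the lowest value of 14 of the 50 Rab genes (28.0%, against 14.1% of all genes) and the highest of 1 (2.0%, against 20.8%). The same array had the lowest median of 13 red pulp macrophage markers, 0.54 below the WT mean on the log2 scale, and the highest median of the T cell markers. In log2 units from the WT mean, the macrophage marker medians were 0.41, 0.15 and 0.28 in hypomorph replicates 1 to 3, against -0.54, 0.23, -0.22 and 0.50 in WT replicates 1 to 4. All 13 macrophage markers had a positive difference, and their summed linear level ran from 36366 to 43201 in hypomorph cells and from 24208 to 43163 in WT cells, so the groups overlapped. Without WT replicate 1 the median over the Rab genes was 0.02 and 30 were positive. With the mean macrophage marker level as a covariate, 29 were positive and the median was 0.02. Pancreatic acinar markers, 7 of 10 measured and 6 of those negative, summed to 702 to 1492 in hypomorph cells and 747 to 4866 in WT cells, highest in WT replicates 3 and 4. Their mean level was also used as a covariate, a setting chosen after seeing the data. The differences were then 0.90 for Rab20, -0.83 for Rab4a and 0.79 for Rab34, against 0.47, -0.38 and 0.26 without it. The adjusted limma p-values were 0.267, 0.298 and 0.330. Rab32 moved as well, from 0.04 to 0.43 (adjusted limma p of 0.552).

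**Figure D2:**
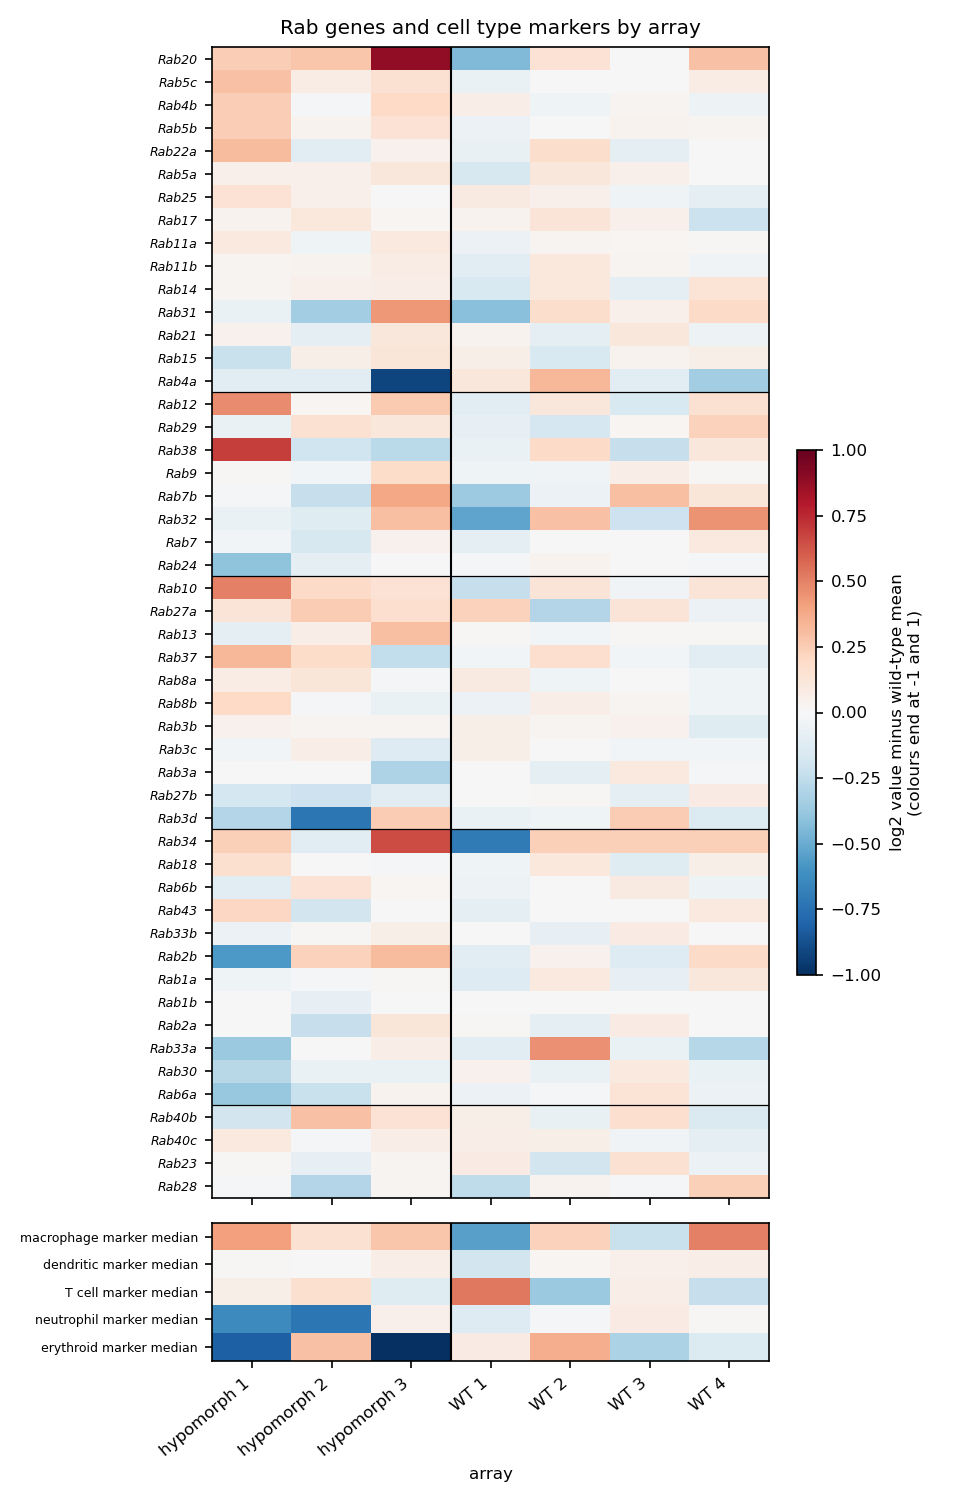
Each of the 50 Rab genes (rows, by role) and the median of 5 marker lists (bottom rows) in each of the 7 arrays (columns, hypomorph at the left), as the log2 value minus the WT mean, with colours ending at -1 and 1. WT replicate 1 is blue for Rab20, Rab32, Rab34 and the macrophage markers; hypomorph replicate 3 is deep red for Rab20 and deep blue for Rab4a.

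Among the 15 Rabs of early and recycling endosomes, 13 had a positive difference (median 0.06), and Rab5c alone had an unadjusted p under 0.05. Rab5 proteins drive fusion of early endosomes. Rab5c had log2 values of 8.98, 8.76 and 8.84 in hypomorph cells, against 8.62, 8.68, 8.68 and 8.76 in WT cells. All hypomorph arrays lay above all WT arrays, but the gap between the groups was 0.008. The difference was 0.18 (95% interval 0.01 to 0.35, 1.13-fold), with an unadjusted limma p of 0.0443, an adjusted p of 0.644 and an exact permutation p of 0.0286. Its interval reached 0 in most refits, and the unadjusted limma p was under 0.05 in 7 of 18 settings. Without hypomorph replicate 1 the difference was 0.12, and with the macrophage marker level as a covariate it was 0.15 (unadjusted limma p of 0.151 and 0.0875).

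The other Rab5 genes had differences of the same sign. Rab5a had 9.23, 9.23 and 9.29 in hypomorph cells, against 9.02, 9.29, 9.23 and 9.18 in WT cells, a difference of 0.07 (-0.12 to 0.26) with overlapping groups. Rab5b had 4.41, 4.20 and 4.31 in hypomorph cells, against 4.11, 4.16, 4.20 and 4.19 in WT cells. Its lowest hypomorph value equalled the highest WT value, and the difference of 0.14 (-0.02 to 0.31) had an unadjusted limma p of 0.0809 and an adjusted p of 0.651.

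Rab20, which acts on maturing phagosomes and endosomes of macrophages, had the largest difference of the family. Its values were 7.63, 7.66 and 8.27 in hypomorph cells, against 6.94, 7.53, 7.39 and 7.68 in WT cells. Hypomorph replicate 3 stood highest and WT replicate 1 lowest, and WT replicate 4 lay above hypomorph replicates 1 and 2. The difference was 0.47 (-0.04 to 0.97, 1.38-fold; adjusted p = 0.644, limma). It was 0.26 without hypomorph replicate 3, 0.32 without WT replicate 1 and 0.34 with the macrophage marker level as a covariate.

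Rab4a, which returns receptors rapidly from early endosomes to the surface, had the most negative difference. Values were 6.37, 6.37 and 5.56 in hypomorph cells, against 6.59, 6.81, 6.37 and 6.13 in WT cells. The groups overlapped, and hypomorph replicate 3 stood far below the rest. The difference was -0.38 (-0.93 to 0.18; adjusted p = 0.691, limma) and -0.10 without that array. The same array was lowest for erythroid markers (7 of 10 measured, 6 negative), whose medians from the WT mean were -0.82, 0.29 and -2.06 in hypomorph replicates 1 to 3, against 0.08, 0.36, -0.32 and -0.14 in WT replicates 1 to 4. Their summed linear level ran from 1459 to 7665 in hypomorph cells and from 4465 to 7702 in WT cells, and their part in the Rab4a values was not tested. A second probe set of Rab4a had a difference of -0.40 and was likewise lowest in hypomorph replicate 3, at 5.11. Its close relative Rab4b had a difference of 0.14 (-0.06 to 0.33).

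Rab11a marks recycling endosomes and Rab14 shuttles between the Golgi and endosomes and is found on phagosomes. Rab11a had 9.35, 9.21 and 9.35 in hypomorph cells, against 9.19, 9.28, 9.27 and 9.26 in WT cells, a difference of 0.05 (-0.10 to 0.20) with overlapping groups. Rab14 had 10.78, 10.80 and 10.82 in hypomorph cells, against 10.60, 10.86, 10.66 and 10.89 in WT cells. The 3 hypomorph values lay within the WT range, and the difference was 0.05 (-0.15 to 0.25). The remaining members of the group, Rab11b, Rab15, Rab17, Rab21, Rab22a, Rab25 and Rab31, all overlapped between groups, with differences between -0.01 (Rab15) and 0.08 (Rab22a).

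**Figure D3:**
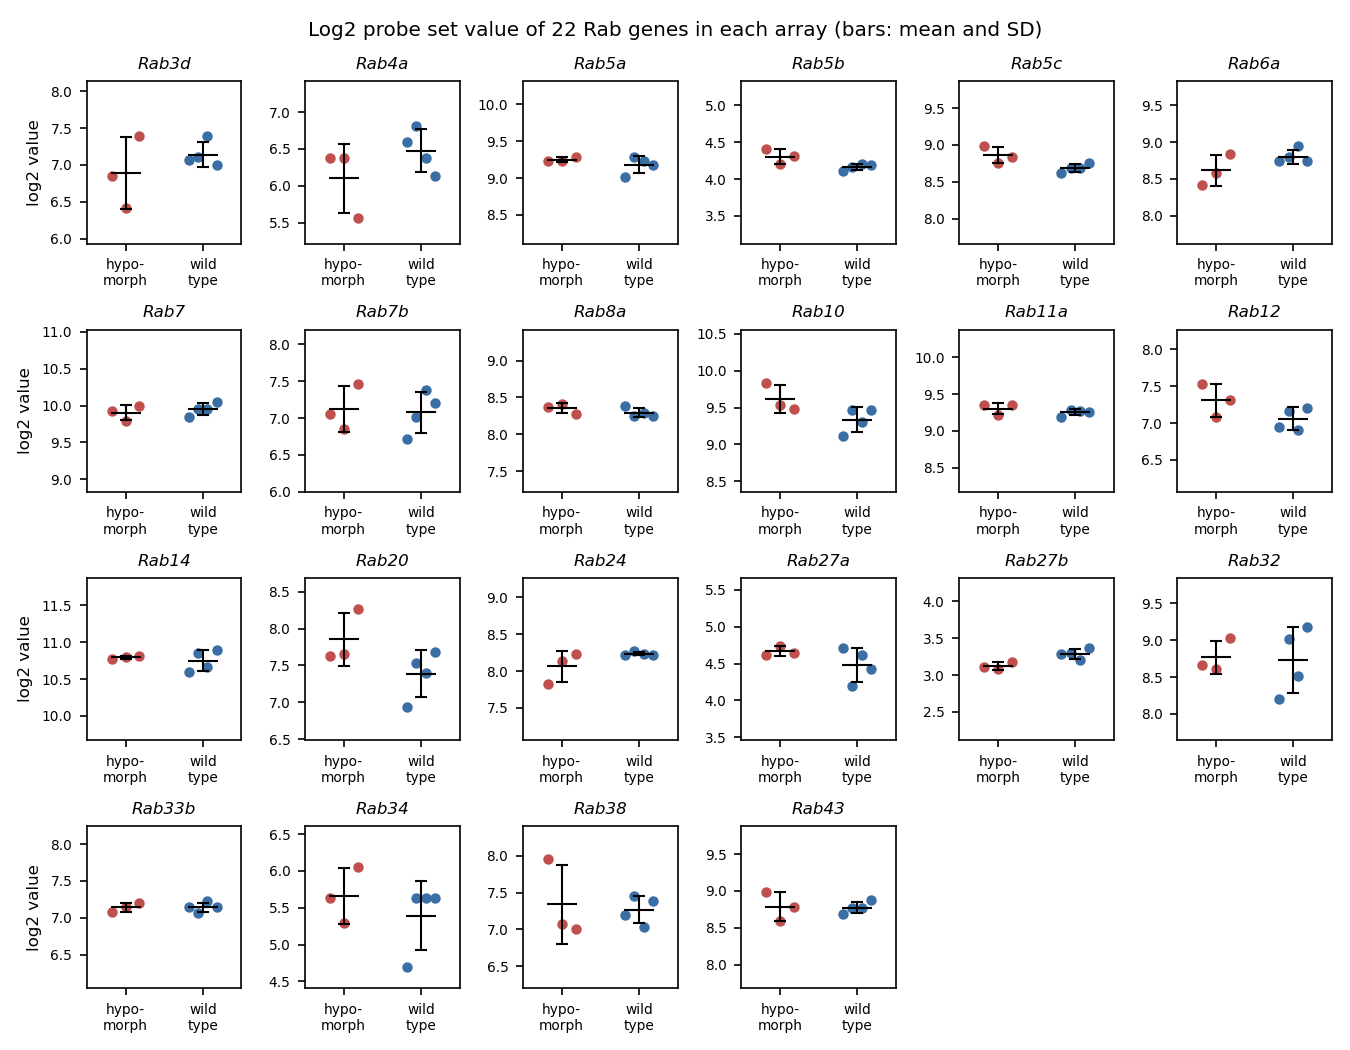
Log2 values of the named Rab genes in each array (points; 3 hypomorph arrays at the left and 4 WT arrays at the right of each panel), with bars for the group mean and SD. Rab5c, Rab10 and Rab27b are the genes whose groups do not overlap, by gaps of 0.008, 0.011 and 0.02.

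Among the 11 Rabs of exocytosis and secretory granules, 7 had a positive difference (median 0.04). Rab10 carries vesicles to the plasma membrane and is known in macrophages for the transport of Toll-like receptor 4. Rab10 had 9.84, 9.53 and 9.48 in hypomorph cells, against 9.11, 9.47, 9.30 and 9.47 in WT cells. The groups did not overlap, by a gap of 0.011, and hypomorph replicate 1 stood highest. The difference was 0.28 (-0.01 to 0.57, 1.21-fold), with an adjusted p of 0.644 (limma) and an exact permutation p of 0.114. It was 0.17 without hypomorph replicate 1 and 0.19 with the macrophage marker level as a covariate.

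Rab27a and Rab27b tether secretory granules and lysosome-related organelles, and in dendritic cells Rab27a is known for bringing the NADPH oxidase to phagosomes. Rab27a had 4.61, 4.74 and 4.65 in hypomorph cells, against 4.71, 4.19, 4.61 and 4.42 in WT cells, a difference of 0.19 (-0.11 to 0.48) with overlapping groups. Rab27b had 3.11, 3.08 and 3.18 in hypomorph cells, against 3.28, 3.30, 3.20 and 3.37 in WT cells. All hypomorph arrays lay below all WT arrays, by a gap of 0.02. The difference was -0.16 (-0.32 to -0.01), with an unadjusted limma p of 0.0420, an adjusted p of 0.644 and an exact permutation p of 0.0571. The unadjusted limma p was over 0.05 in most refits, such as 0.0915 without hypomorph replicate 1, 0.110 without hypomorph replicate 2 and 0.0641 with median centring. Basophils and mast cells carry secretory granules, and 7 of their 8 listed markers were measured. Of these, 5 (71.4%) were also lower in hypomorph cells at an unadjusted limma p under 0.05, beside 3.34% of all probe sets. None passed the adjusted threshold. Groups did not overlap for 3 (42.9%, all lower in hypomorph cells), beside 2.5% of all probe sets. Their differences were -1.76 for Fcer1a, -1.61 for Mcpt8 and -1.06 for Cpa3, and the list summed to 367 to 471 in hypomorph cells and 622 to 1404 in WT cells, on the linear scale. Their part in the Rab27b values was not tested. These Rab27b values lie near the lower quartile of each array (3.31 to 3.39); detection calls were not used here, and the second Rab27b probe set had a difference of -0.04 (-0.26 to 0.17).

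Rab3d, a Rab of secretory granules, had 6.85, 6.42 and 7.39 in hypomorph cells, against 7.07, 7.10, 7.39 and 7.00 in WT cells. The groups overlapped, and hypomorph replicate 2 stood lowest; the difference was -0.25 (-0.75 to 0.25). It was -0.02 without hypomorph replicate 2, -0.50 without hypomorph replicate 3 (unadjusted limma p under 0.05, adjusted p = 0.595) and 0.00 with the acinar marker level as a covariate. Neutrophils are rich in granules, and their markers (8 of 10 measured, all 8 negative) summed to 37198 to 61097 in hypomorph cells and 55548 to 61595 in WT cells, on the linear scale. The marker list had medians of -0.64, -0.72 and 0.05 from the WT mean in hypomorph replicates 1 to 3, against -0.13, -0.01, 0.08 and 0.01 in WT replicates 1 to 4. Their part in the Rab3d values was not tested. Rab8a, of exocytosis and cilia, had 8.37, 8.41 and 8.28 in hypomorph cells, against 8.38, 8.25, 8.29 and 8.25 in WT cells, a difference of 0.06 (-0.09 to 0.21) with overlapping groups. The differences of Rab3a, Rab3b, Rab3c, Rab8b, Rab13 and Rab37 lay between -0.11 (Rab3a) and 0.09 (Rab13 and Rab37), all with overlapping groups.

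Of the 8 Rabs of late endosomes, lysosomes and autophagosomes, 6 had a positive difference (median 0.05) and none an unadjusted p under 0.05. Rab7, which drives fusion of late endosomes and autophagosomes with lysosomes, had 9.92, 9.79 and 9.99 in hypomorph cells, against 9.85, 9.95, 9.95 and 10.05 in WT cells. The difference was -0.05 (-0.24 to 0.13) and the groups overlapped. Rab7b, which acts between late endosomes and the Golgi, had 7.06, 6.85 and 7.47 in hypomorph cells, against 6.72, 7.02, 7.38 and 7.20 in WT cells, a difference of 0.05 (-0.40 to 0.49). Both groups spread widely around the same level. Over 18 settings the Rab7b difference ran from -0.13 to 0.44. The unadjusted limma p was under 0.05 in 1 of them, and the smallest adjusted p was 0.349.

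Rab12 and Rab24 have known links to autophagy. Rab12 had 7.53, 7.08 and 7.32 in hypomorph cells, against 6.95, 7.17, 6.91 and 7.21 in WT cells, a difference of 0.25 (-0.04 to 0.55; adjusted p = 0.653, limma) with overlapping groups. Leaving out hypomorph replicate 1 gave 0.14, and leaving out hypomorph replicate 2 gave 0.37 (unadjusted limma p under 0.05, adjusted p = 0.267). Rab24 had 7.83, 8.14 and 8.23 in hypomorph cells, against 8.22, 8.27, 8.23 and 8.22 in WT cells. Hypomorph replicate 1 stood below the rest, and the difference was -0.17 (-0.40 to 0.07; adjusted p = 0.678, limma), or -0.05 without that array.

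Rab32 and Rab38 build lysosome-related organelles. Rab32 had 8.66, 8.61 and 9.03 in hypomorph cells, against 8.20, 9.02, 8.52 and 9.18 in WT cells, a difference of 0.04 (-0.52 to 0.60), and its lowest array was WT replicate 1. Rab38 had 7.96, 7.07 and 7.00 in hypomorph cells, against 7.20, 7.46, 7.04 and 7.38 in WT cells. Hypomorph replicate 1 stood highest and the other hypomorph arrays lay in or just below the WT range; the difference was 0.07 (-0.47 to 0.62). Its sign rested on that array, since without it the difference was -0.24. The differences of Rab9 and Rab29 were 0.06 and 0.07.

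Of the 12 Rabs of the route from endoplasmic reticulum to Golgi and of the Golgi, 5 had a positive difference (median -0.01). Rab33b, the binding partner of Atg16l1, had 7.08, 7.15 and 7.20 in hypomorph cells, against 7.14, 7.06, 7.22 and 7.14 in WT cells. The groups covered nearly the same range, and the difference of 0.00 had a 95% interval of -0.15 to 0.16. Rab43, known in mouse dendritic cells for cross-presentation, had 8.98, 8.59 and 8.78 in hypomorph cells, against 8.68, 8.77, 8.77 and 8.87 in WT cells, a difference of 0.01 (-0.23 to 0.24).

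Rab6a, of traffic within and back to the Golgi, had 8.42, 8.58 and 8.84 in hypomorph cells, against 8.74, 8.79, 8.94 and 8.74 in WT cells. The difference was -0.19 (-0.44 to 0.07; adjusted p = 0.672, limma), and hypomorph replicate 3 lay within the WT range. It was -0.09 without hypomorph replicate 1, -0.30 without hypomorph replicate 3 (unadjusted limma p under 0.05, adjusted p = 0.559) and -0.06 with the acinar covariate. Rab34, of the Golgi and of phagosomes, had 5.63, 5.29 and 6.05 in hypomorph cells, against 4.69, 5.63, 5.63 and 5.63 in WT cells. The groups overlapped, with WT replicate 1 far below the rest. Its difference of 0.26 (-0.39 to 0.90) was 0.02 without WT replicate 1. Identical values such as these were common on the arrays: 18% of the Rab genes and 22.6% of all probe sets shared a value in 3 or more arrays. The differences of Rab1a, Rab1b, Rab2a, Rab2b, Rab18, Rab30, Rab33a and Rab6b lay between -0.14 (Rab30) and 0.05 (Rab18), and those of Rab23, Rab28, Rab40b and Rab40c, of cilia and other roles, between -0.09 (Rab28) and 0.08 (Rab40b).

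Because 27 of the 50 genes had several probe sets, the 95 probe sets that name 1 Rab gene were also read. Of them 6 (6.32%, beside 7.69% of all probe sets) had an unadjusted limma p under 0.05, and 5 (5.26%, beside 5.57%) had groups that did not overlap. The probe sets of 19 of the 27 genes had differences of 1 sign, and those of 8 had both signs. The 3 of Rab10 had differences of 0.28, 0.42 and 0.25. The 6 of Rab14 were all positive, from 0.04 to 0.47. The probe set of Rab14 with the difference of 0.47 had 7.27, 7.12 and 7.00 in hypomorph cells, against 6.68, 6.49, 6.71 and 6.79 in WT cells. Its groups did not overlap, by a gap of 0.215 (95% interval 0.24 to 0.69; unadjusted limma p = 0.00152, adjusted p = 0.644, exact permutation p = 0.0286), while the brightest probe set of Rab14, given above, had a difference of 0.05. The second brightest Rab14 probe set had 9.32, 9.11 and 9.37 in hypomorph cells, against 8.98, 8.97, 9.08 and 9.09 in WT cells. Its groups did not overlap either, by a gap of 0.02. The difference was 0.23 (0.04 to 0.43), with an unadjusted limma p of 0.0231, an adjusted p of 0.644 and an exact permutation p of 0.0286. Which part of the transcript each probe set reads was not examined.

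**Figure D4:**
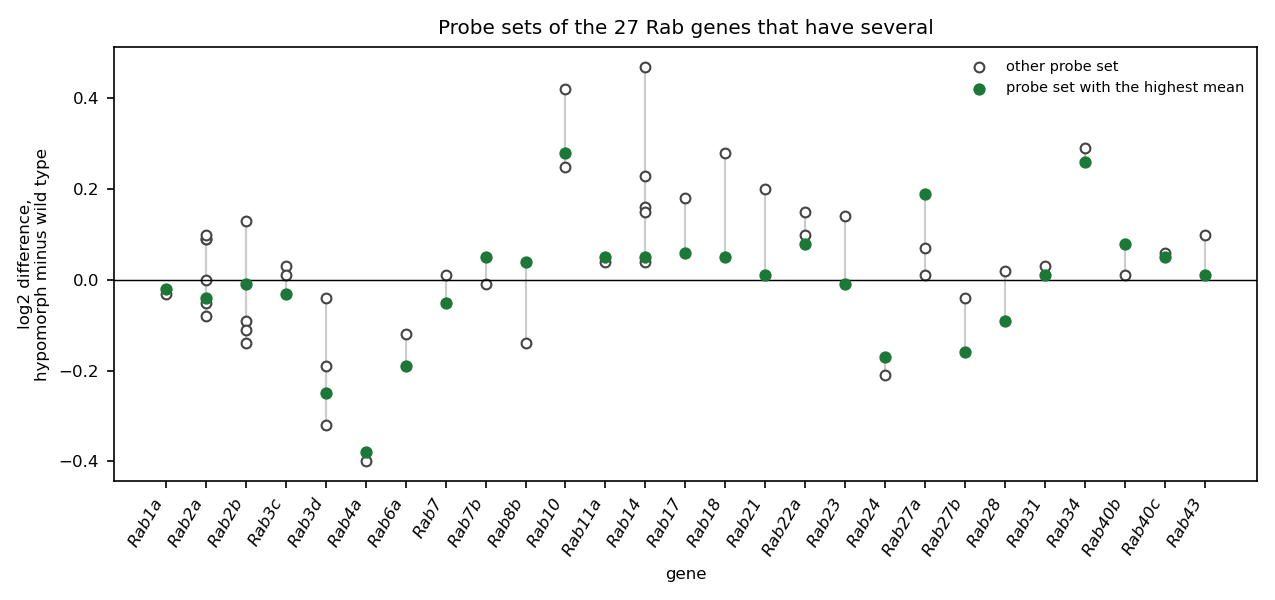
Differences between hypomorph and WT cells (log2, y axis) of each probe set of the 27 Rab genes that have several, 1 gene per column, with the probe set of the highest mean as a filled point. The 6 probe sets of Rab14 run from 0.04 to 0.47, and the 3 of Rab10 from 0.25 to 0.42.

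Promoters are printed for 3 of the 4 Rab genes with the smallest unadjusted p-values, Rab5c, Rab10 and Rab20, to set their sequence beside their values. They are the 250 bases before the annotated start in RefSeq, GRCm38.p6, read 5′ to 3′ on the strand of the gene, all on the minus strand, at chr11:100738216-100738465, chr12:3309970-3310219 and chr8:11478641-11478890. Capitals mark CACGTG, the E-box core found in the element bound by TFEB and related factors of lysosome genes; it reads the same on both strands.
Rab5c: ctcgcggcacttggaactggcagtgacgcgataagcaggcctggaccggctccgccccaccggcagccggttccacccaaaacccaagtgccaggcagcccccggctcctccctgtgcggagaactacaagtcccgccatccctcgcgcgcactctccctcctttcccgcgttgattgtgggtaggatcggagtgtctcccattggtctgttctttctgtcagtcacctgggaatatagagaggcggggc
Rab10: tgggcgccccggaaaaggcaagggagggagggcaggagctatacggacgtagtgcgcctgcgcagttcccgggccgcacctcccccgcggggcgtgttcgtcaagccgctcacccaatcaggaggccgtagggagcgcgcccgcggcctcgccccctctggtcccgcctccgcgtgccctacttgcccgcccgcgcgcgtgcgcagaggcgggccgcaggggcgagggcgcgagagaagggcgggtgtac
Rab20: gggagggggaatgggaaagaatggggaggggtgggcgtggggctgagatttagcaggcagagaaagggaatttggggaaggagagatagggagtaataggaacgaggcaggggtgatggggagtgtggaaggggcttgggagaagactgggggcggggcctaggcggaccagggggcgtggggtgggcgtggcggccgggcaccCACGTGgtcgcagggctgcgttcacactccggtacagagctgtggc
GC made up 63.2%, 74.8% and 65.2% of these bases, in the order printed. RefSeq promoters of 300 bases (250 before to 50 after the start) were found for 42 of the 50 genes, 54 promoters in all. CACGTG stood in 6 of the 54 (11.1%), those of Rab5a, Rab20, Rab21, Rab23, Rab24 and Rab27a, against 7.15% of all 32851 promoters. The median GC content was 61.2% for the Rab promoters and 52.7% for all. The 6 genes with the motif had a median difference of 0.04 (4 positive). The other 44 genes, among them those with no promoter found, had 0.04 (29 positive). A match is a description of the letters, and no match says only that these letters are not in this window.

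The proteins that work on Rabs were read from lists of 137 genes, of which 78 were measured. None passed the adjusted threshold, 4 (5.13%, beside 7.69% of all probe sets) had an unadjusted limma p under 0.05, and 3 (3.85%, beside 5.57%) had groups that did not overlap. Of the 78, 45 were positive, with a median of 0.02. The prenylation, escort and extraction list (8 measured) had a median of -0.03, the exchange factors (19) 0.02, the GTPase-activating proteins (18) 0.03 and the effectors (34) -0.00; Dennd5a stands in both of the lists of exchange factors and effectors.

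Madd, an exchange factor of Rab3 and Rab27 proteins, had 6.04, 5.79 and 5.83 in hypomorph cells, against 5.78, 5.15, 5.65 and 5.44 in WT cells. The groups did not overlap, by a gap of 0.011, and the difference was 0.39 (0.03 to 0.74; adjusted p = 0.644, limma). Tbc1d24, a TBC-domain protein, had 5.80, 6.03 and 6.19 in hypomorph cells, against 6.23, 6.50, 6.30 and 6.27 in WT cells. Here too the groups did not overlap, by 0.041, and the difference was -0.32 (-0.57 to -0.06; adjusted p = 0.644, limma). The next genes were chosen after their values were seen. Rufy3 and Tbc1d15 (a GTPase-activating protein of Rab7) had differences of 0.61 (0.14 to 1.07) and 0.40 (0.03 to 0.76). Their groups overlapped, and the adjusted limma p was 0.644 for both. Bicd2 (an adaptor of dynein that binds Rab6) had 0.13 (-0.01 to 0.27). The largest difference of the 78 was negative, that of Lrrk2 at -0.65 (-1.45 to 0.14), with overlapping groups. Myo5a and Pde6d had -0.38 (-0.86 to 0.10) and -0.34 (-0.78 to 0.11), also with overlapping groups. Of the 78, 33 were negative. Eea1, the Rab5 effector that tethers early endosomes, had a difference of 0.22 (-0.08 to 0.53), and Gdi2, which extracts Rabs from membranes, of 0.06 (-0.10 to 0.23).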

How the data were processed

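For each of 7 Affymetrix GeneChip arrays the authors deposited log2 values, 1 per probe set. Affymetrix Power Tools is named per the submitters' processing notes; which version, summary method and normalization were used is not given in the sources here. The near-equal array quartiles show values that had been put on a common scale, so they were used as deposited. The number of arrays limits the precision.

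Of 22690 probe sets, 64 controls and 1 without a value were left out, and 22625 were tested. Genes were named through the array's annotation: 20379 probe sets named 1 gene, 691 several and 1555 none. Every difference is hypomorph minus WT, fitted with limma 3.58.1 (R 4.3.3; lmFit and eBayes, group means only) over the whole table, with Benjamini-Hochberg adjustment and a threshold of 0.05. The fit was tested on simulated data, 5 runs with 200 changed probe sets each. At the adjusted threshold it recovered 41.5% of log2 differences of 0.5 in size, 82.1% of 1 and 97% of 2. Of its calls, 5.39% were false. The Rab differences, from -0.38 to 0.47, were all smaller than those simulated, so the lack of calls does not show that small differences are absent. Exact two-sided permutation tests cover the 35 splits of the arrays.

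Values per array are given for Rab genes at an unadjusted p under 0.05 or with groups that did not overlap, for the 4 largest differences each way, and for 16 with known roles in autophagy, endosomes, phagosomes or antigen presentation. From the lists of regulators, genes with both properties are given. The others named from these lists, Eea1 and Gdi2 among them, fall outside this rule. The members, lists and rules were chosen with earlier results of these data known. Alternatives were each array left out, a replicate block, median centring, trended and robust variance, array weights, 32 added to the linear value, no dim probe sets, other probe sets per gene, the 56 symbols and, chosen after seeing the data, acinar and macrophage marker settings.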

Additional observations from a re-analysis of the deposited data

Results flagged for a closer look

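Dixon's 95% critical value for 4 samples was used to flag WT arrays that stood apart from the others. It flagged the highest or lowest WT array in 5 of the 50 Rab genes (10%). The usual rate of about 1 in 20 groups assumes values without ties, and identical values were common on these arrays. The share over all probe sets was not computed, so the 10% is not read as an excess. Groups of 3, such as the hypomorph arrays, were not tested. Rab34 had 4.69 in WT replicate 1, against 5.63 in each of the other WT arrays. Rab15 had 5.42 in WT replicate 2, where the nearest other WT value was 5.61, and Rab13 had 4.54 in the same array, where the nearest was 4.58. Rab3b had 4.24 in WT replicate 4, where the nearest was 4.39. Rab1b had 7.71 in WT replicate 3, where the others were at 7.70. For Rab1b and Rab13 the distance is tiny on the log2 scale and stands out only because the other WT values were nearly identical.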

How the results depend on the processing

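The count of Rab genes at an unadjusted limma p under 0.05, 2 as reported, ranged from 0 to 6 with 1 array left out. It was 0 without WT replicate 1 (beside 6.21% of all probe sets in that fit) or WT replicate 2 (beside 5.13%). Leaving out WT replicate 3 (beside 6.42%) or hypomorph replicate 1 (beside 4.84%) gave 1. The count was 6 when hypomorph replicate 3 was left out (beside 6.48%) and 4 when hypomorph replicate 2 was (beside 13.2%). It was 1 with trended and robust variance (beside 7.58% of all probe sets) or with 32 added to the linear value (beside 7.39%). It was 0 without dim probe sets (34 genes left, beside 9.34%) and 4 with the second brightest probe set (beside 7.69%). Some settings were chosen after seeing the data. The count was 0 (beside 5.64% of all probe sets) without WT replicates 3 and 4, which were rich in pancreatic acinar markers. With that marker level as a covariate it was 4 of 50, beside 11.5% of all probe sets, so the Rab genes did not stand out there. The count of regulators and effectors, 4 of 78 as reported, ranged from 1 to 13 with 1 array left out. It was 1 without hypomorph replicate 1 (beside the same 4.84%) or WT replicate 2 (beside 5.13%). Without hypomorph replicate 2 it was 13, beside the same 13.2%. With the mean over the probe sets of a gene it was 7, beside 7.02% of all genes in that fit. The count of all probe sets at an adjusted p under 0.05, 0 as reported, ranged from 0 to 2 with 1 array left out (1 without hypomorph replicate 1 or WT replicate 3, 2 without hypomorph replicate 2), and was 5 with median centring, with trended and robust variance or without dim probe sets, and 3 with array weights. No Rab gene passed the adjusted threshold in any setting, and the smallest adjusted p of a named Rab gene was 0.267. Of 393 values of the 22 named Rab genes over 18 settings, 27 had the opposite sign, and 13 genes had none. The median over the Rab genes ranged from 0.0158 to 0.0488 with 1 array left out. The labels do not say that the numbers pair arrays, so the main fit used no pairing. Same-numbered arrays had correlations of their deviations of 0.102, 0.0977 and 0.339, and differently numbered arrays -0.256 to 0.207. So few pairs cannot decide whether the numbers pair arrays. With the replicate block the count of Rab genes was 2 (beside 8.23% of all probe sets), but of other genes. These were Rab20 and Rab4a (unadjusted limma p 0.0199 and 0.0171) in place of Rab5c and Rab27b (0.0843 and 0.178). The block gave 6 regulators (beside the same 8.23%), 0 probe sets at an adjusted p under 0.05 and a Rab median of 0.0356. The causes of these shifts were not tested.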
